A study of Homo sapiens with 45 samples.

Results

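The matrix metalloproteinases MMP1, MMP2, MMP3, MMP7, MMP10 and MMP14, the tissue inhibitors TIMP2 and TIMP3, the urokinase gene PLAU and its receptor gene PLAUR were followed across cancer cell lines given single microRNAs. These are 10 of the 19775 genes that the array annotation names singly, chosen by their symbols and read on every array of the series. HEY and SKOV3 are ovarian cancer lines and PC3 is a prostate cancer line, all established human lines. Each line received miR-203a, miR-205, miR-429 or the negative control miR-NC as a lipid-delivered precursor at 33 nM, and one further set per line is labelled untransfected. RNA was taken 48 hours later. Each of the 15 groups held 3 arrays, 45 in all. Whether those 3 were grown apart is not stated, and every p-value below therefore covers the scatter of arrays, which may be technical. By its title the series concerns mesenchymal-to-epithelial transition driven by miRNAs and its variation among cancer cell types.

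Matrix metalloproteinases are zinc enzymes that cut the proteins of the extracellular matrix. MMP1 is a collagenase, MMP2 a gelatinase, MMP3 and MMP10 are stromelysins, MMP7 is matrilysin, and MMP14 sits in the cell membrane, where it activates MMP2 together with TIMP2. Urokinase, the product of PLAU, binds its receptor PLAUR at the cell surface and turns plasminogen into plasmin, which in turn can activate several metalloproteinases. Carcinoma cells that invade often carry more of these enzymes, and TIMP2 and TIMP3 restrain them.

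The 3 transfected miRNAs are shown because their seeds, the bases that pair with target transcripts, help to set which transcripts each can bind. The sequences are the RefSeq mature forms on GRCh38.p14, and capitals mark the seed, bases 2 to 8. The labels name the precursors without an arm, so the arms shown for miR-203a and miR-205 are the guide strands known for these genes.
hsa-miR-203a-3p: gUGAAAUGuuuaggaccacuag
hsa-miR-205-5p: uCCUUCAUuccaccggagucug
hsa-miR-429: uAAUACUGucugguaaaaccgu
The first lies on the plus strand at chr14:104117469-104117490, the second at chr1:209432166-209432187 and the third at chr1:1169055-1169076, both also on the plus strand. The 3 seeds are all different.

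Values are log2 intensities of 1 probe set per gene, the brightest, and a difference of 1 unit is a 2-fold change in intensity. No detection calls were used, so the median of all values on the transfected arrays, 4.88, serves as the level near background, and a difference with a group mean under it is only a bound on the true change. All 10 genes passed the filter that at least 1 transfected group mean exceed this level. MMP1, MMP14, TIMP2, PLAU and PLAUR exceeded it in all 12 transfected groups, MMP2 and TIMP3 in 8, MMP10 in 6, MMP3 in 4 and MMP7 in 2. MMP2, TIMP3, MMP10, MMP3 and MMP7 thus passed only through the groups where they are high. MMP2 lay under it in every HEY group and TIMP3 in every PC3 group.

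The arrays labelled untransfected were kept out of the main fit because genes specific to a line went against their labels. On the arrays labelled untransfected HEY, 0% of 44 HEY-specific genes and 90.6% of 85 SKOV3-specific genes lay nearer to the level of the line they mark. On those labelled untransfected PC3, this held for 0% of 139 PC3-specific and 100% of the HEY-specific genes. On those labelled untransfected SKOV3 it held for 32.9% of the SKOV3-specific, 39.6% of the PC3-specific and 4.55% of the HEY-specific genes. The line-specific genes were chosen on the transfected groups: the lowest group mean in the line lay at least 3 log2 units above the highest elsewhere. In those groups it therefore held for 100% of the genes of the labelled line by construction, which is no check of their labels. Same-group pairs of transfected arrays correlated at 0.981 or more. Of markers of other cells, 1 of 4 blood genes (HBB, highest group mean 5.29), 2 of 3 endothelial genes (PECAM1 and CDH5, highest 11.002) and 4 of 4 fibroblast genes (highest 9.17) exceeded 4.88 in some transfected group, and their part in the results was not tested.

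The array's control probe sets for GAPDH and actin also moved between groups. The labels describe amplification from the 3′ end, and the array's probe set for the 5′ end of GAPDH read 12.28 ± 0.32 in HEY with miR-205, 8.95 ± 0.40 with miR-203a, 6.25 ± 0.16 with miR-429 and 8.37 ± 0.29 with miR-NC (SD, n = 3 each). In PC3 it read 9.99 ± 0.38 with miR-203a, 8.70 ± 0.58 with miR-205, 4.54 with miR-429 (3.69 to 5.67 over its arrays) and 5.04 ± 1.18 with miR-NC. The 3′ GAPDH probe set moved as well, by 1.48 in HEY with miR-205, 1.31 in HEY with miR-429, 2.01 in PC3 with miR-203a and 1.82 in PC3 with miR-205. The 5′ actin probe set differed by 1.22 in HEY with miR-205, -0.97 in HEY with miR-429, 3.73 in PC3 with miR-203a and 2.73 in PC3 with miR-205, while the 3′ actin probe set stayed within 0.352 of miR-NC in all 9 comparisons. In SKOV3 every one of these probe sets averaged between 13.65 and 13.89, near the highest mean they reached in any transfected group (14.06), where a shift may not show. The part of these controls in the differences below was not tested.

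**Figure D1:**
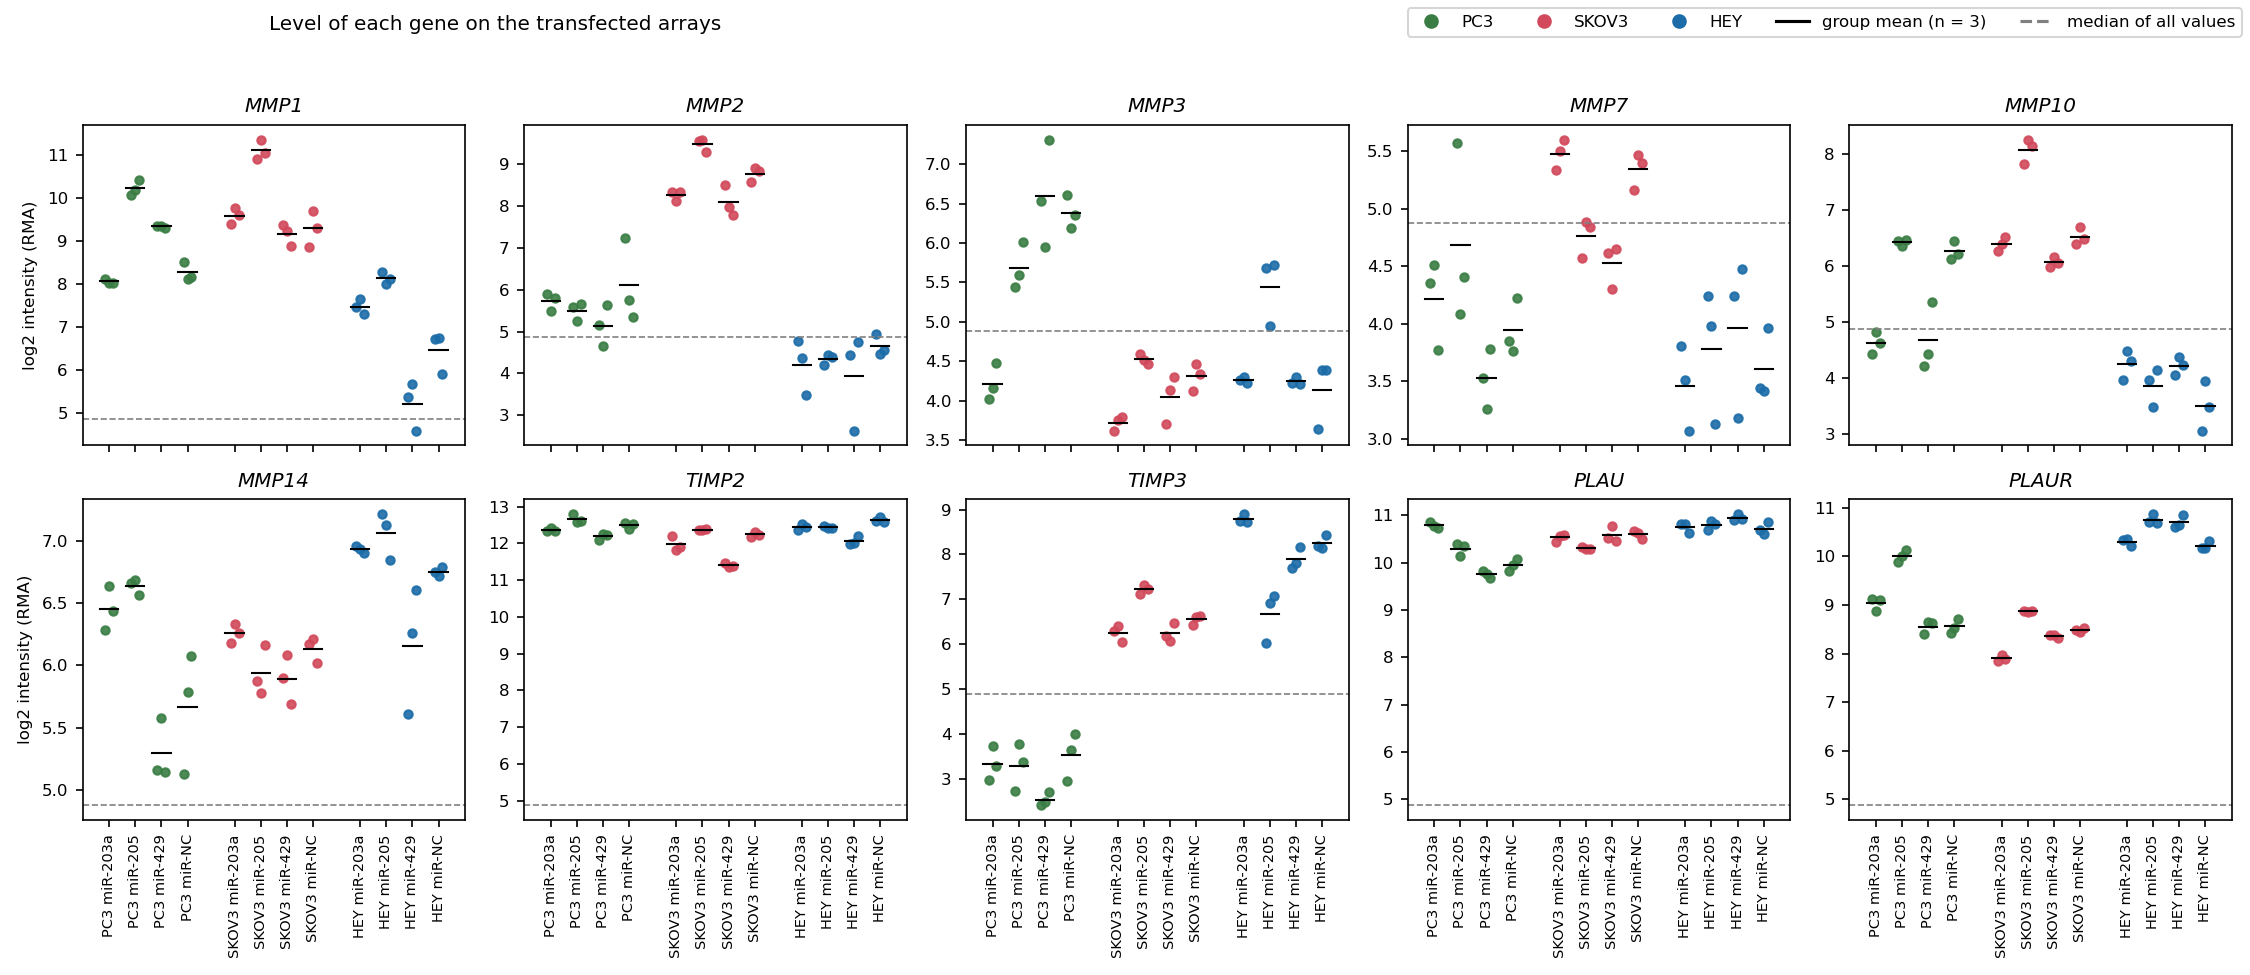
Log2 intensity of each of the 10 genes (y axis, own range per panel) on the 36 transfected arrays, grouped on the x axis by line and miRNA with miR-NC last in each line. Points are arrays, black bars are group means of 3 arrays and the dashed line is 4.88, and lines run PC3, SKOV3, HEY. MMP1 has its highest mean of each line with miR-205, MMP2 has its highest means in SKOV3, and TIMP3 lies below the dashed line throughout PC3.

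Under miR-NC the lines carried different sets of these proteases. MMP1 averaged 8.28 ± 0.22 in PC3, 9.30 ± 0.42 in SKOV3 and 6.47 ± 0.47 in HEY (SD, n = 3 each), and all 3 pairs differed, by limma with Benjamini-Hochberg adjustment over all genes, at 0.000123 (PC3 minus SKOV3, lost with all 45 arrays at 0.0622), 3.74e-08 (PC3 minus HEY) and 1.14e-12 (SKOV3 minus HEY). MMP2 was highest in SKOV3: it read 8.57, 8.90 and 8.84 there, against 4.93, 4.47 and 4.55 in HEY, a bound of 4.12 ± 0.40 (SE, adjusted p = 1.17e-10), and PC3 arrays read 7.22, 5.76 and 5.34. MMP3 was higher in PC3, at 6.60, 6.19 and 6.36, than in HEY at 3.64, 4.39 and 4.39, and the arrays did not overlap. MMP10 was higher in PC3 (6.26 ± 0.16) and SKOV3 (6.53 ± 0.16) than in HEY (3.50 ± 0.45, under 4.88), and PC3 and SKOV3 did not differ beyond their spread (adjusted p = 0.264). MMP7 passed 4.88 under miR-NC only in SKOV3, at 5.34 ± 0.16.

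On their brightest probe sets TIMP3 and PLAUR were highest in HEY. TIMP3 averaged 3.53 ± 0.53 in PC3, 6.55 ± 0.10 in SKOV3 and 8.26 ± 0.16 in HEY, and its 4.73 ± 0.25 (SE) deficit in PC3 against HEY is a bound, since the PC3 mean lay under 4.88 (adjusted p = 2.53e-16). All 4 TIMP3 probe sets were lower in PC3 than in HEY, but between SKOV3 and HEY 201149_s_at was 2.25 higher while the other 3 were lower. PLAUR averaged 8.56 ± 0.15 in PC3, 8.49 ± 0.05 in SKOV3 and 10.22 ± 0.09 in HEY, so that PC3 and SKOV3 did not differ beyond their spread (adjusted p = 0.484) and HEY stood 1.66 to 1.73 above them. All 3 PLAUR probe sets were lower in PC3 than in HEY, but between SKOV3 and HEY 1 was higher (0.71) and 2 lower. Between PC3 and SKOV3 they ran from -3.11, called lower, to 0.74, called higher. PLAU averaged 9.95 ± 0.13 in PC3, 10.60 ± 0.09 in SKOV3 and 10.72 ± 0.12 in HEY, lower in PC3 than in SKOV3 (-0.65, adjusted p = 3.23e-07) and HEY (-0.77, 3.53e-08), and MMP14 read 5.67 ± 0.48, 6.13 ± 0.10 and 6.75 ± 0.03 in the same order of lines. The PC3 to SKOV3 difference in MMP14 (adjusted p = 0.0259) was lost without PC3 miR-NC replicate 1 (-0.20, adjusted p = 0.316), without SKOV3 miR-NC replicate 1 (0.0591) or without SKOV3 miR-NC replicate 2 (0.071). In each pair of lines 8 of the 10 genes were called. Between PC3 and SKOV3, 2 were higher and 6 lower in PC3, where 47.2% and 36.6% of all 15029 genes tested were higher and lower (83.8% together). Against HEY, PC3 had 4 higher and 4 lower, beside 28.1% and 34.1% of all genes (62.1% together), and SKOV3 had 4 higher and 4 lower, beside 34.8% and 46.3% (81.1% together). These backgrounds are of the same order as 8 of 10, so the counts say nothing particular about the proteases.

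Against miR-NC, 16 of 30 gene-by-line comparisons were called with miR-205 (12 higher, 4 lower), beside 52.5% of those of all genes. With miR-429 12 of 30 were called (4 higher, 8 lower), beside 47.4%, and with miR-203a 9 of 30 (5 higher, 4 lower), beside 32.6%. With miR-205, HEY had 3 genes higher and 2 lower (35.4% and 35% of all genes, 70.4% together), SKOV3 4 higher and 1 lower (20.8% and 11.5%, 32.3% together), and PC3 5 higher and 1 lower (31.4% and 23.4%, 54.8% together). With miR-429, HEY had 3 higher and 3 lower (22.9% and 39%, 62% together), SKOV3 0 higher and 1 lower (19.2% and 9.89%, 29.1% together), and PC3 1 higher and 4 lower (20% and 31%, 51% together). With miR-203a, HEY had 2 higher and 0 lower (8.45% and 10.1%, 18.6% together), SKOV3 0 higher and 2 lower (9.53% and 7.14%, 16.7% together), and PC3 3 higher and 2 lower (33.8% and 28.8%, 62.6% together). Most of these counts lie near their backgrounds or below them; with miR-205 in SKOV3, 5 of 10 stands beside 32.3%. In PC3 with miR-429 the split depends on the scaling: with array medians subtracted 3 genes were higher and 2 lower, and all genes split into 6834 higher and 1885 lower, against 3007 and 4664 as deposited.

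The arrays of the groups did not overlap, in either direction, for 7 of the 10 genes in HEY with miR-205 (73.5% of all genes), 8 in SKOV3 (53.8%) and 6 in PC3 (58%). With miR-429 this held for 6 in HEY (64.8%), 5 in SKOV3 (50.8%) and 4 in PC3 (53.2%), and with miR-203a for 5 in HEY (42.1%), 4 in SKOV3 (36.1%) and 6 in PC3 (64.5%). The response differed between lines, by the F-test, for 8 of 10 genes with miR-205 (75.6% of all genes), 5 with miR-429 (71.9%) and 5 with miR-203a (53.1%). The median difference of the 10 genes with miR-205 was 0.24 in HEY, 0.30 in SKOV3 and 0.26 in PC3, against 0.04, 0.03 and 0.06 over all genes. The 3 comparisons of a line share their miR-NC arrays.

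**Figure D2:**
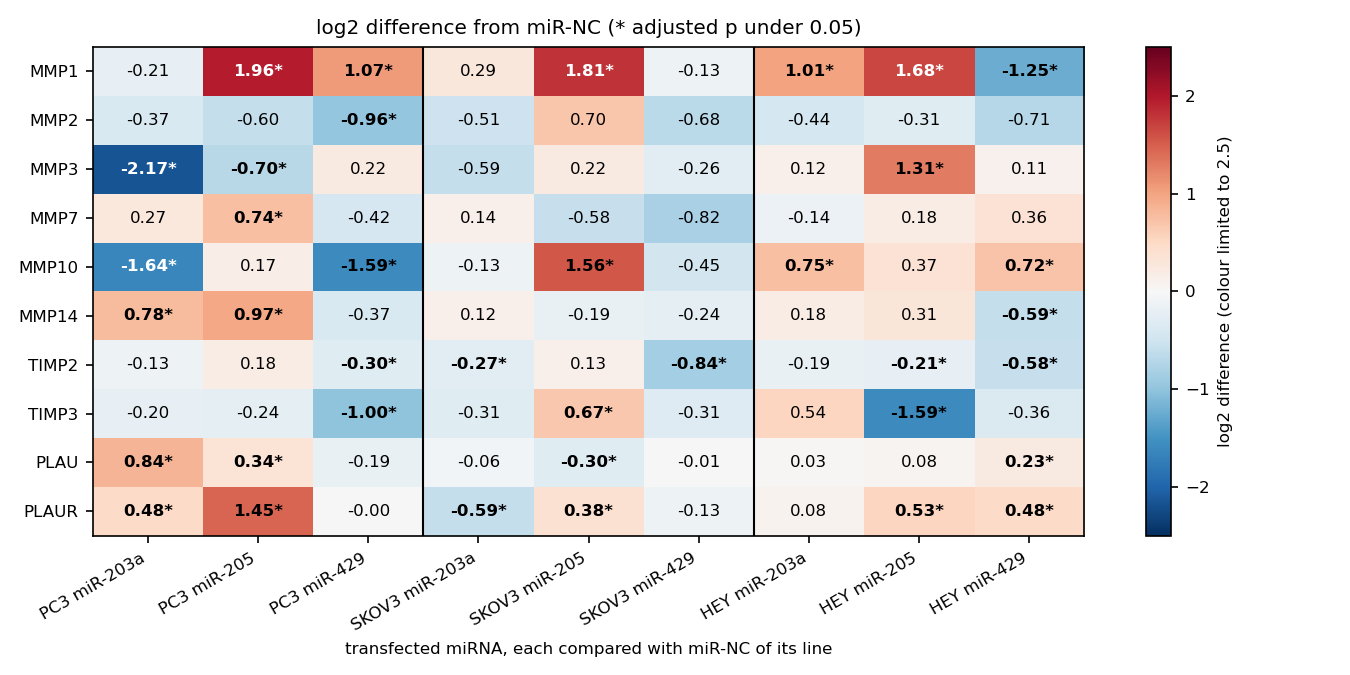
Difference from miR-NC of the same line (log2, colour and number) for the 10 genes (rows) in the 9 comparisons (columns, PC3 then SKOV3 then HEY), with an asterisk where the adjusted p was under 0.05. MMP1 is higher with miR-205 in all 3 lines, TIMP2 lower with miR-429 in all 3, and MMP10 changes sign between HEY and PC3 with miR-203a and with miR-429.

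MMP1, the interstitial collagenase, rose with miR-205 in all 3 lines. With miR-205 it read 8.29, 8.01 and 8.13 in HEY, against 6.73, 6.74 and 5.93 with miR-NC. In SKOV3 it read 10.91, 11.36 and 11.06 with miR-205, against 8.87, 9.71 and 9.31 with miR-NC. In PC3 it read 10.08, 10.19 and 10.43 with miR-205, against 8.53, 8.12 and 8.18 with miR-NC. In no line did the groups overlap. The differences were 1.68 ± 0.22 in HEY (SE, 3.20-fold, adjusted p = 9.93e-08), 1.81 ± 0.22 in SKOV3 (3.51-fold, 1.68e-07) and 1.96 ± 0.22 in PC3 (3.89-fold, 1.57e-08), and the F-test found no difference between the lines (adjusted p = 0.695). In the same comparisons the 5′ GAPDH control differed by 3.92 in HEY, 3.66 in PC3 and 0.01 in SKOV3, where it is near its highest values.

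With the other 2 miRNAs MMP1 did not move alike. With miR-429 it fell in HEY to 5.38, 5.68 and 4.60, against 6.73, 6.74 and 5.93 with miR-NC, a difference of -1.25 ± 0.22 (adjusted p = 1.72e-05). In PC3 it rose with miR-429 to 9.35, 9.36 and 9.31, against 8.53, 8.12 and 8.18 with miR-NC, a difference of 1.07 ± 0.22 (adjusted p = 0.000248), while SKOV3 gave -0.13 ± 0.22 (0.71). The 5′ GAPDH control differed by -2.11 in HEY, -0.50 in PC3 and -0.04 in SKOV3. The direction thus turned between HEY and PC3, and the F-test of equal responses gave an adjusted p of 1.34e-06. With miR-203a MMP1 rose by 1.01 ± 0.22 in HEY (adjusted p = 0.00143), with arrays at 7.47, 7.67 and 7.30, and was 0.29 in SKOV3 and -0.21 in PC3, neither called. With all 45 arrays in the fit the HEY rise with miR-203a (0.203) and the PC3 rise with miR-429 (0.0834) were no longer called. PC3 cells given miR-205, set directly against PC3 cells given miR-203a, differed by 2.17 ± 0.22 in MMP1 (adjusted p = 8.67e-09, beside 32% of all genes called).

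MMP1 lies in a run of metalloproteinase genes on chromosome 11. On GRCh38.p14 MMP7, MMP10, MMP1 and MMP3 lie in that order within chr11:102520508-102843609, 323.1 kb that hold 7 protein-coding genes, all of them metalloproteinases. With miR-205 in SKOV3 MMP1 and MMP10 rose, while MMP3 differed by 0.22 ± 0.24 (adjusted p = 0.547) with both means under 4.88, and MMP7 by -0.58 ± 0.32 (0.171). The differences between these genes were not tested.

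MMP10, a stromelysin, moved in opposite directions in different lines. In SKOV3 it rose with miR-205 to 7.83, 8.27 and 8.15, against 6.39, 6.70 and 6.49 with miR-NC, a difference of 1.56 ± 0.22 (2.94-fold, adjusted p = 1.47e-06). In PC3 it fell with miR-203a to 4.44, 4.82 and 4.62, against 6.13, 6.45 and 6.21 with miR-NC, a difference of -1.64 ± 0.22 (2.05e-07), and with miR-429 to 4.22, 4.44 and 5.36, a difference of -1.59 ± 0.22 (1.07e-06). The PC3 means with these miRNAs, 4.63 and 4.67, lay under 4.88, so these falls are bounds, and the groups did not overlap. In HEY the called rises with miR-203a (0.75) and miR-429 (0.72) joined means of 4.25 and 4.22 to 3.50 with miR-NC, all near background. The rise with miR-203a was lost without HEY miR-NC replicate 1 (adjusted p = 0.128) or HEY miR-203a replicate 2 (0.0792), and that with miR-429 without HEY miR-NC replicate 1 (0.0627). Both were lost with all 45 arrays (0.238 and 0.121), and the first also in a fit of HEY alone (0.0563). Equal responses across lines were rejected for all 3 miRNAs, at 9.58e-07 for miR-203a, 0.000361 for miR-205 and 9.97e-07 for miR-429.

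MMP3, the other stromelysin, exceeded 4.88 only in PC3 with miR-205, miR-429 and miR-NC and in HEY with miR-205. In PC3 it fell with miR-203a to 4.02, 4.16 and 4.47, against 6.60, 6.19 and 6.36 with miR-NC, a bound of -2.17 ± 0.24 (adjusted p = 8.43e-09). It also fell with miR-205, by 0.70 ± 0.24 (0.0156), with arrays at 5.45, 5.60 and 6.02. That call was lost without PC3 miR-NC replicate 1 (0.0718) or PC3 miR-205 replicate 1 (0.0764), and in a fit of PC3 alone (0.0584). In HEY MMP3 rose with miR-205 to 5.68, 4.94 and 5.72, against 3.64, 4.39 and 4.39 with miR-NC, a bound of 1.31 ± 0.24 (2e-05). Equal responses to miR-205 across the lines were rejected (F-test 3.05e-05). The differences in HEY and PC3 had opposite signs, but the F-test does not test sign and the PC3 call was not stable.

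MMP7 and MMP2 gave few calls. MMP7, matrilysin, was called once, with miR-205 in PC3, at 5.58, 4.08 and 4.41 against 3.85, 3.76 and 4.22 with miR-NC. The groups overlap, both means lie under 4.88, and without PC3 miR-205 replicate 1 the difference was 0.30 (adjusted p = 0.435) in place of 0.74 (0.0467). The call was also lost without PC3 miR-NC replicate 1 (0.107) or replicate 2 (0.129), with all 45 arrays (0.11), in a fit of PC3 alone (0.0785) and with no filter (0.0568). In SKOV3, the line with the most MMP7, it read 4.62, 4.31 and 4.65 with miR-429, against 5.16, 5.47 and 5.40 with miR-NC, and the difference of -0.82 ± 0.32 missed the threshold (0.0503). MMP2, the gelatinase, was called once, with miR-429 in PC3: it read 5.15, 4.65 and 5.63, against 7.22, 5.76 and 5.34 with miR-NC, and the groups overlap. The difference of -0.96 ± 0.40 (adjusted p = 0.0447) was -0.41 without PC3 miR-NC replicate 1 (0.404), and it was also lost without PC3 miR-429 replicate 1 (0.0821) or replicate 2 (0.187). It was lost under 5 other settings too: all 45 arrays (0.0699), a fit of PC3 alone (0.0639), quantile normalization (0.287), subtracted array medians (0.235) and averaged probe sets (0.127). In SKOV3, where MMP2 is high, it read 9.54, 9.58 and 9.28 with miR-205, 8.49, 7.98 and 7.79 with miR-429 and 8.57, 8.90 and 8.84 with miR-NC. Neither difference was called (0.70 ± 0.40, adjusted p = 0.194, and -0.68 ± 0.40, 0.217) although the arrays do not overlap, and a fit of SKOV3 alone called both, at 0.00425 and 0.00559 (limma, adjusted over all genes).

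MMP14, the membrane-bound enzyme that activates MMP2, rose in PC3 with miR-203a and miR-205. It read 6.28, 6.63 and 6.44 with miR-203a and 6.66, 6.68 and 6.56 with miR-205, against 5.13, 5.79 and 6.08 with miR-NC. The differences were 0.78 ± 0.19 (adjusted p = 0.000784) and 0.97 ± 0.19 (8.97e-05), and 2 of the 3 other MMP14 probe sets were also called higher in each comparison. The 5′ GAPDH control was 4.95 and 3.66 higher in these groups. In HEY MMP14 was lower with miR-429, at 5.61, 6.26 and 6.60 against 6.75, 6.72 and 6.79 with miR-NC (-0.59, 0.00841), but the call was lost without HEY miR-429 replicate 1 (-0.32, 0.136), its probe set 202827_s_at was 0.41 higher, and the mean of its probe sets gave -0.04 (0.767).

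TIMP2, which averaged between 11.40 and 12.67 in every transfected group, was lower with miR-429 in all 3 lines on its brightest probe set, and only the SKOV3 call held under every setting tried except a 2-fold minimum. In SKOV3 it read 11.46, 11.35 and 11.38 with miR-429, against 12.18, 12.32 and 12.23 with miR-NC (-0.84 ± 0.09, adjusted p = 1.3e-08). In HEY it read 11.97, 12.01 and 12.20 with miR-429, against 12.61, 12.72 and 12.59 with miR-NC (-0.58 ± 0.09, 1.73e-06). In PC3 it read 12.10, 12.24 and 12.23 with miR-429, against 12.54, 12.40 and 12.53 with miR-NC (-0.30 ± 0.09, 0.00578). No groups overlapped, and the size differed between lines (F-test 0.00158), a difference that quantile normalization took away (0.266). The PC3 fall turned to 0.11 (0.334) when array medians were subtracted and to 0.21 (0.0357) when the probe sets were averaged, and it was -0.01 (0.944) without _x_at and _s_at probe sets. The HEY fall was -0.13 (0.177) with averaged probe sets. The probe sets disagree in HEY and PC3: 203167_at rose with miR-429 by 1.15 in HEY and 0.94 in PC3, while in SKOV3 it differed by -0.10 (not called). Smaller TIMP2 calls, -0.21 with miR-205 in HEY and -0.27 with miR-203a in SKOV3, were each lost on leaving out any of 4 of the 6 arrays. In HEY these were miR-NC replicates 1 and 2 and miR-205 replicates 2 and 3 (-0.17 to -0.22). In SKOV3 they were miR-NC replicates 2 and 3 and miR-203a replicates 2 and 3 (-0.19 to -0.28). The 3 TIMP2 probe sets ran from -1.06 to 1.42 in HEY with miR-205, 1 called higher and 2 lower. With miR-203a they ran from -0.19 to 0.80 in HEY and from -0.13 to 1.91 in PC3, 1 called higher in each. In PC3 with miR-205 they ran from 0.18 to 1.95, 2 called higher.

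TIMP3, an inhibitor that binds to the matrix itself, fell in HEY and rose in SKOV3 with miR-205. In HEY it read 6.02, 6.91 and 7.08 with miR-205, against 8.19, 8.15 and 8.44 with miR-NC (-1.59 ± 0.25, adjusted p = 1.46e-06). In SKOV3 it read 7.13, 7.32 and 7.24 with miR-205, against 6.43, 6.61 and 6.62 with miR-NC (0.67 ± 0.25, 0.0354). The groups did not overlap in either line, and the F-test gave 6.39e-06. In SKOV3 all 4 TIMP3 probe sets were called higher, by 0.67 to 1.28, although the call on the brightest was lost whichever of the 6 arrays was left out (0.61 to 0.72, adjusted p 0.0551 to 0.11) and with quantile normalization (0.0612). In HEY 201149_s_at rose by 0.63 where the brightest fell, and the other 2 probe sets were not called. In PC3 TIMP3 was near background in every group, and the called difference with miR-429 (-0.998) joins means of 2.53 and 3.53 and was lost with quantile normalization (0.131).

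PLAUR, the urokinase receptor, rose with miR-205 in all 3 lines. In PC3 it read 9.88, 10.01 and 10.13 with miR-205, against 8.42, 8.54 and 8.72 with miR-NC, a difference of 1.45 ± 0.09 (2.73-fold, adjusted p = 2.57e-13). In HEY it read 10.70, 10.87 and 10.68 with miR-205, against 10.17, 10.17 and 10.32 with miR-NC (0.53 ± 0.09, 9.83e-06). In SKOV3 it read 8.88, 8.85 and 8.88 with miR-205, against 8.49, 8.43 and 8.53 with miR-NC (0.38 ± 0.09, 0.00188). The arrays did not overlap, and the size differed between the lines (F-test 4.45e-08), with PC3 showing the most. A second probe set, 214866_at, rose with miR-205 in all 3 lines too, by 2.11 in HEY, 0.77 in SKOV3 and 1.70 in PC3, and the third, 211924_s_at, rose in HEY and PC3 but not in SKOV3 (0.14, adjusted p = 0.648). With miR-203a PLAUR rose in PC3 (0.48, 6.54e-05) and fell in SKOV3 (-0.59, 2.15e-05), at 7.86, 7.96 and 7.88 against 8.49, 8.43 and 8.53 with miR-NC. The SKOV3 fall was called on 1 of the 3 PLAUR probe sets, and without _x_at and _s_at probe sets it was -0.11 (0.744). With miR-429 it rose in HEY (0.48, 5.45e-05) and was not called in SKOV3 (-0.13, 0.343) or PC3 (0.996).

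PLAU, urokinase itself, was read here by its brightest probe set first. In PC3 it rose with miR-203a to 10.87, 10.78 and 10.73, against 9.82, 9.95 and 10.08 with miR-NC (0.84 ± 0.09, adjusted p = 9.89e-09), and with miR-205 to 10.39, 10.15 and 10.35 (0.34 ± 0.09, 0.00282, lost with all 45 arrays at 0.144). In SKOV3 it fell with miR-205 to 10.33, 10.29 and 10.29, against 10.66, 10.63 and 10.50 with miR-NC (-0.30 ± 0.09, 0.0161), a call lost without SKOV3 miR-NC replicate 1 (0.0692) or replicate 2 (0.0532), with all 45 arrays (0.291) and with averaged probe sets (0.252). In HEY with miR-429 PLAU was 0.23 higher (0.0361), a call lost without miR-NC replicate 1 (0.22) or 2 (0.18), or miR-429 replicate 2 (0.19) or 3 (0.24). There the second PLAU probe set, 211668_s_at, read 4.36, 5.24 and 3.68 with miR-429, against 6.87, 6.23 and 6.86 with miR-NC, a difference of -2.23 ± 0.39 (1.26e-05). The probe sets of PLAU therefore gave opposite answers in HEY with miR-429, and the 5′ GAPDH control was -2.11 from miR-NC there. In PC3 211668_s_at rose by 3.40 with miR-203a and 2.04 with miR-205.

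**Figure D3:**
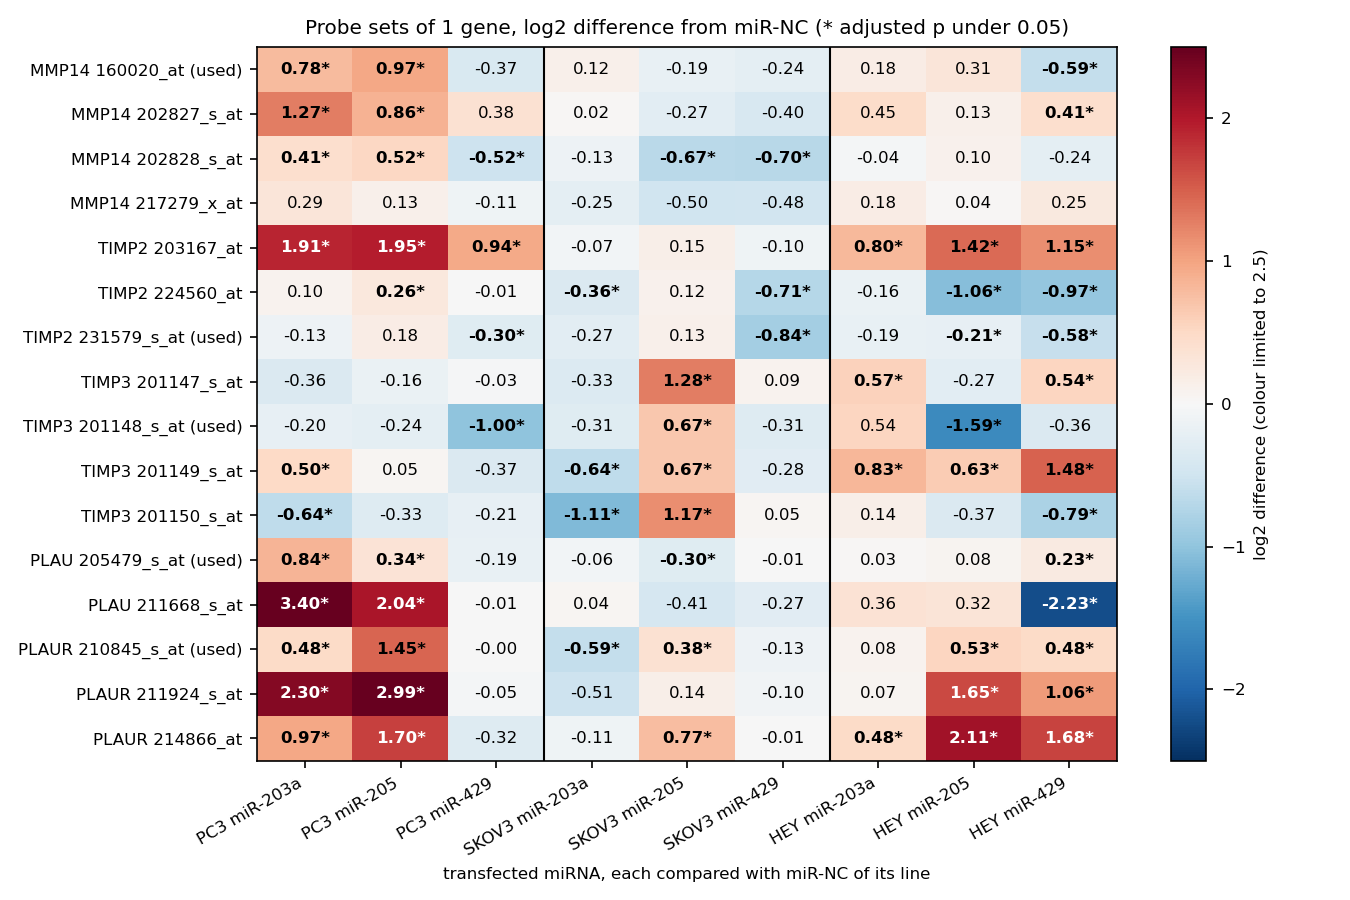
Difference from miR-NC (log2, colour and number) of each tested probe set of MMP14, TIMP2, TIMP3, PLAU and PLAUR (rows, with the brightest of each gene marked as used) in the 9 comparisons (columns), with an asterisk where the adjusted p over all probe sets was under 0.05. In each SKOV3 comparison the called probe sets of a gene share a sign, while TIMP2 203167_at and PLAU 211668_s_at go against the brightest probe set in HEY with miR-429.

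Over all 21 tested probe sets of the 10 genes and the 9 comparisons, 81 of 189 differences were called, beside 41.7% over all probe sets. With miR-205, 10 of 21 were called in HEY (69.1% of all probe sets), 10 in SKOV3 (27.7%) and 13 in PC3 (52.2%). With miR-429 there were 15 in HEY (61.7%), 3 in SKOV3 (24.4%) and 7 in PC3 (48.5%), and with miR-203a 6 in HEY (17.7%), 4 in SKOV3 (13.8%) and 13 in PC3 (60.3%). The 2 PLAU probe sets order the lines differently: under miR-NC 211668_s_at read 4.21, 5.45 and 6.00 in PC3, 10.93, 10.94 and 10.59 in SKOV3 and 6.87, 6.23 and 6.86 in HEY, while the brightest averaged 9.95 ± 0.13, 10.60 ± 0.09 and 10.72 ± 0.12. Between PC3 and SKOV3 the first differed by -5.60 and the second by -0.65.

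**Figure D4:**
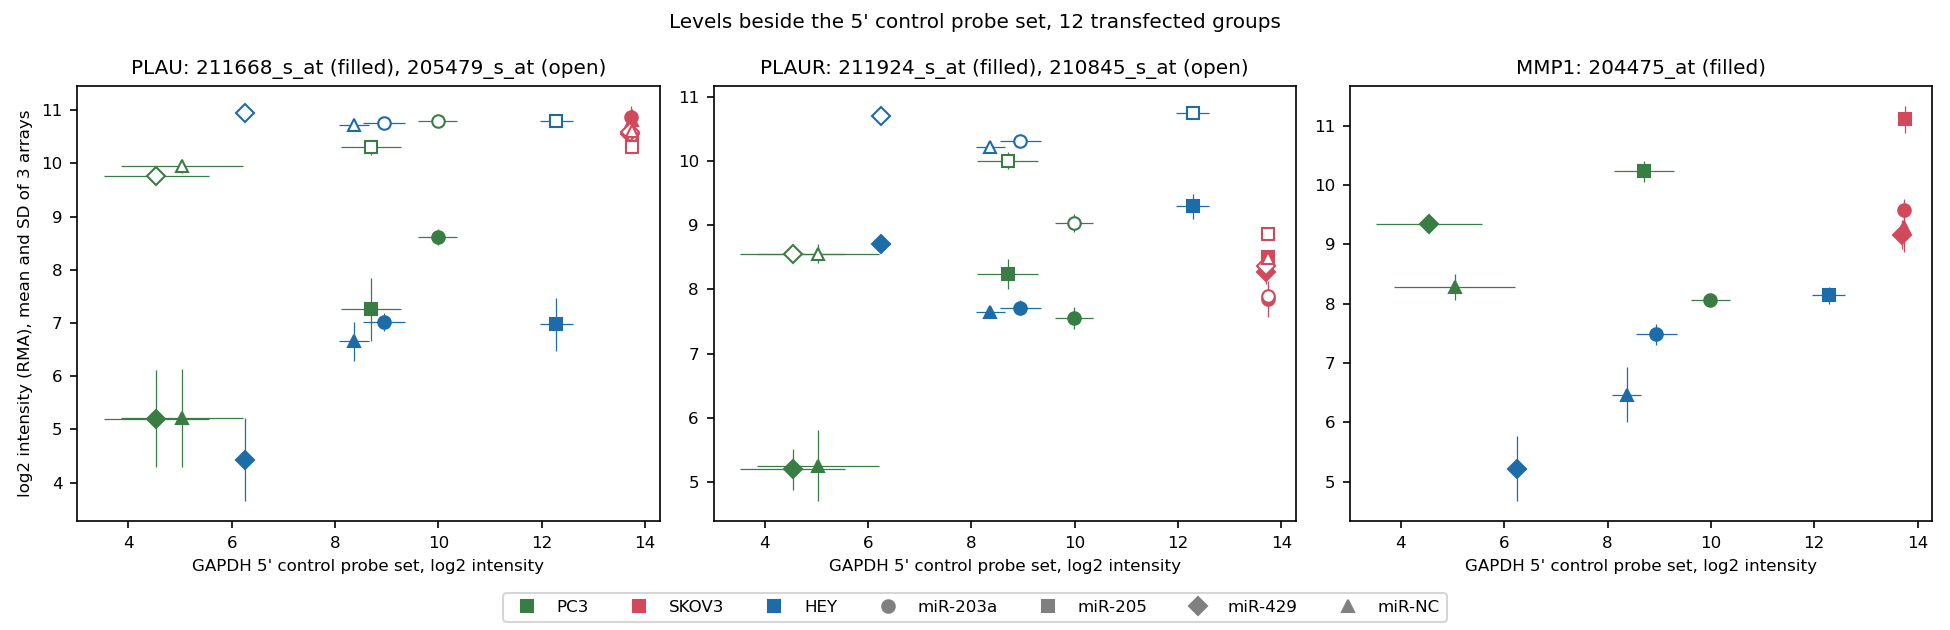
Group means and SDs (3 arrays each) of PLAU, PLAUR and MMP1 probe sets (y axis, log2 intensity) beside the 5′ GAPDH control probe set (x axis, log2 intensity) in the 12 transfected groups, with colour for the line and shape for the miRNA. The second PLAU probe set is highest in the SKOV3 groups, whose control lies near 13.7, and falls to 4.43 in HEY with miR-429, while the brightest PLAU probe set stays between 9.76 and 10.95. MMP1 in HEY lies lowest with miR-429, where the control of that line is lowest too. In PC3 MMP1 lies lowest with miR-203a (8.06), where the control of that line is highest (9.99).

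Promoters of 6 of the 10 genes were in the sequence table used here; MMP1, MMP2, MMP3 and TIMP2 are named only. MMP10, MMP7 and PLAUR are shown because they hold the letters TGANTCA, with any base in the middle. This is looser than TGA(C/G)TCA, the core bound by AP-1, a factor known to drive metalloproteinase and urokinase receptor genes. MMP7 and PLAUR hold TGAGTCA, a form of that core, while MMP10 holds TGAATCA, which departs from it in the middle base. The 250 bases before the gene start are given 5′ to 3′ on the gene's strand from RefSeq on GRCh38.p14, and capitals mark TGANTCA, which reads the same on both strands and was the single motif searched.
MMP10: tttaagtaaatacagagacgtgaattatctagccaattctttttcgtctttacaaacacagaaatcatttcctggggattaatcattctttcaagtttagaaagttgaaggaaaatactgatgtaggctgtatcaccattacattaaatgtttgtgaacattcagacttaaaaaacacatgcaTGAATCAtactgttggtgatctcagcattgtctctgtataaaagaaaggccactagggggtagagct
MMP7: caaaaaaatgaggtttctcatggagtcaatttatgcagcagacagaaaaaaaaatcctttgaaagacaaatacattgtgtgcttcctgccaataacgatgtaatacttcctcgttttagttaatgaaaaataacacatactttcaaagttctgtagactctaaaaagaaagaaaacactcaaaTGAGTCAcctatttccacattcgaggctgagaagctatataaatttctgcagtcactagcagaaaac
PLAUR: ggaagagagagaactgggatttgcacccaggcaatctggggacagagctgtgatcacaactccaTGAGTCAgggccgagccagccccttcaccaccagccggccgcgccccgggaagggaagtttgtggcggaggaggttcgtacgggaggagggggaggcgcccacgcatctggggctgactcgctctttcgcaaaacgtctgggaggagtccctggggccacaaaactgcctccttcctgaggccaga
These windows are chr11:102780629-102780878, chr11:102530748-102530997 and chr19:43670170-43670419, all on the minus strand. The match starts 67 bases before the start in MMP10 and in MMP7 and 186 in PLAUR. Of 35116 promoter windows of 250 bases, 6.57% hold TGANTCA, and the windows of MMP14, TIMP3 and PLAU do not hold these letters. With miR-205, 35.4% of all genes were called higher in HEY, 20.8% in SKOV3 and 31.4% in PC3. Genes of both kinds were called higher with it in some line. These were MMP10, PLAUR and, near background, MMP7 among those with the letters, and MMP14, TIMP3 and PLAU among those without. TIMP3 was also called lower in HEY (-1.59) and PLAU in SKOV3 (-0.30). A tie between the letters and the response was not tested.

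The other genes of the system are given list by list. RECK, a membrane-anchored inhibitor of metalloproteinases, fell with miR-205 and miR-429 in all 3 lines. It averaged 5.79 ± 0.33 with miR-205 and 6.23 ± 0.11 with miR-429 in HEY, against 9.07 ± 0.20 with miR-NC (-3.28 ± 0.15, adjusted p = 2.51e-17, and -2.83 ± 0.15, 1.63e-15). In SKOV3 the differences were -1.16 and -1.65 and in PC3 -1.35 and -1.84. The mean of the RECK probe sets gave smaller falls that were no longer called in SKOV3 (-0.10 and -0.16) or in PC3 with miR-205 (-0.17). With miR-203a the brightest RECK probe set was also lower in PC3 (-0.73, adjusted p = 9.89e-05 by limma) and was not called in HEY or SKOV3. TIMP1, a secreted inhibitor, rose in HEY with miR-205 (2.84) and miR-429 (1.73) and in PC3 with miR-203a (2.85) and miR-205 (2.48), and fell in SKOV3 with miR-429 (-0.46) and in PC3 with miR-429 (-0.83). The SKOV3 call was lost without miR-NC replicate 2 (-0.39), miR-429 replicate 1 (-0.45) or miR-429 replicate 3 (-0.44). Where TIMP1 rose, the 5′ GAPDH control differed from miR-NC by 3.92 in HEY with miR-205, -2.11 in HEY with miR-429, 4.95 in PC3 with miR-203a and 3.66 in PC3 with miR-205. Of the 6 other inhibitors listed, all tested, 29 of 54 differences were called (53.7%, beside 44.2% over all genes).

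Of 17 other metalloproteinases 10 were tested and 32 of 90 differences (35.6%, beside 44.2% over all genes) called. With miR-205 in HEY 6 were higher and 1 lower, beside 35.4% and 35% of all genes, so that 7 of 10 called equals the background of 70.4%, with a median of 0.77 against 0.04 over all genes. In PC3 with miR-429 6 were lower and 0 higher, beside 31% and 20% of all genes, with a median of -0.53 against -0.11. Subtracting array medians left 3 lower and 0 higher in PC3 with miR-429, and quantile normalization the same counts. MMP16, a membrane-type enzyme, fell in PC3 with all 3 miRNAs (-1.38 with miR-203a, -1.22 with miR-205, -0.85 with miR-429) and rose in SKOV3 with miR-205 (1.13 ± 0.13, adjusted p = 4.09e-08). In the plasminogen system 11 of 15 genes were tested and 36 of 99 differences (36.4%, beside 44.2%) called. PLAT, the tissue activator of plasminogen, fell in HEY with miR-205 (-1.15) and miR-429 (-1.70) and rose in PC3 with miR-203a (1.39) and miR-205 (0.96). In SKOV3 it rose with miR-203a (0.90) and fell with miR-429 (-0.94). ENO1, an enolase that also binds plasminogen at the cell surface, rose in HEY with miR-205 (2.06) and miR-429 (1.36). In PC3 it rose with miR-203a (2.31) and miR-205 (2.37) and fell with miR-429 (-0.60, lost with subtracted array medians at 0.366). The 5′ GAPDH control differed there by 3.92, -2.11, 4.95, 3.66 and -0.50 in the same order, and its part was not tested. Without probe sets that may cross-hybridise the ENO1 difference with miR-205 was -0.24 in HEY (0.295) and 0.26 in PC3 (0.278). It was then -1.04 in HEY with miR-429 (4.58e-05) and 0.11 in PC3 with miR-203a (0.662).

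ADAMTS5, an aggrecanase, was lower in every comparison where it was called: the differences were -2.49 (miR-429), -1.81 (miR-203a) and -1.20 (miR-205) in HEY, -2.35 (miR-203a), -1.79 (miR-205) and -0.88 (miR-429) in PC3, and -1.22 with miR-203a in SKOV3. The means with miR-429 and miR-203a in HEY and with miR-203a and miR-205 in PC3 lay under 4.88, so those 4 are bounds. The PC3 difference with miR-429 was lost with quantile normalization (0.0954) and subtracted array medians (0.0796). Of 22 ADAM and ADAMTS genes 20 were tested and 87 of 180 differences (48.3%, beside 44.2%) called. At the cell surface 15 of 16 listed partners were tested and 65 of 135 differences (48.1%, beside 44.2%) called. HPSE, heparanase, read 4.39 ± 0.18 with miR-205 in HEY, against 6.88 ± 0.26 with miR-NC (a bound of -2.49). It was also lower in HEY with miR-203a (-0.61, not called with averaged probe sets) and miR-429 (-1.25) and in PC3 with miR-203a (-1.05). With miR-429 it was higher in SKOV3 (0.53) and PC3 (0.52). ITGA3, an integrin chain that can pair with the urokinase receptor, rose in HEY with miR-205 (2.02) and miR-429 (0.66). It rose in PC3 with miR-203a (2.03) and miR-205 (1.93) and fell in SKOV3 with miR-203a (-0.70) and miR-429 (-0.61). Of 14 factors known to act on MMP1 and PLAU promoters, all tested, 62 of 126 differences (49.2%, beside 44.2%) were called. FOSL1, an AP-1 subunit, rose with miR-205 by 1.95 in HEY and 1.47 in PC3, and differed by -0.07 ± 0.17 in SKOV3 (adjusted p = 0.81). It rose as well in HEY with miR-429 (1.59) and in PC3 with miR-203a (1.92). In those comparisons MMP1 differed by -1.25 in HEY and by -0.21 in PC3 (not called). A tie between FOSL1 and MMP1 was not tested. In PC3 with miR-429 the split of calls in these lists changed with scaling: the factors counted 2 higher and 5 lower as deposited, and 6 higher and 2 lower after subtracting array medians.

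As a description over the 12 transfected group means, which share lines and miR-NC groups, the genes with levels most like MMP1 were ATP6AP2 (Pearson r = 0.901), PPA1 (0.898) and ADA (0.896). TGM2 and MARCHF4 (both 0.963) were most like PLAUR, QPCT (0.985) was most like TIMP3, PANX1 (0.936) most like TIMP2, and RBM11 (0.963) most like MMP10. MMP2 was most like SYN2 (0.989), MMP3 like TEX14 (0.928), MMP7 like NFKBIA (0.953), MMP14 like MRFAP1 (0.98) and PLAU like AP1M2 (0.951).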

How the data were processed

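Total RNA of 45 samples was measured on arrays. The deposited values are log2 intensities made by the authors with RMA, per the submitters' processing notes, whose version is not given in the sources used here; the labels give 3′ amplification and biotin labelling. Of 54675 probe sets 41097 had 1 gene symbol, 1801 several and 11777 none, and those with 1 were used. A probe set was tested if its highest transfected group mean exceeded the median of all values, and each gene was its brightest probe set on average (15029 genes, 29950 probe sets). Depth has no meaning for arrays; 3 arrays per group limit the precision.

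One linear model with a mean for each of the 12 transfected groups (36 arrays) was fitted in limma 3.58.1, run in R 4.3.3; moderation added 4.36 prior to 24 residual degrees of freedom. P-values are two-sided and carry Benjamini-Hochberg adjustment over all genes and a threshold of 0.05; a moderated F-test compared responses between lines. Arrays labelled untransfected entered only an alternative fit, that of all 45 arrays. There each difference from miR-NC keeps its value, and only the shared spread and the p-values change. A call lost with all 45 arrays thus reflects the scatter added by arrays whose labels are in doubt. The genes and lists were chosen with earlier results of these data known, so no list is independent evidence. Of the other lists, up to 2 called genes per comparison with the largest change were taken and the text keeps those taken at least 4 times; that limit was chosen after their values were known. Likeness names the nearest of all genes by Pearson correlation.

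Same-numbered arrays did not deviate together (54 pairs, -0.151 to 0.233, 5 above 0.1), so the numbers were not treated as pairs. On simulated data for SKOV3 with miR-205, run on 15029 genes, 84% of changes of 1 log2 unit and 42% of changes of 0.5 were recovered, and 6 of 14829 unchanged genes were called. The simulation changed only 100 genes by each size, with independent normal noise. In the real comparison 32.3% of genes were called, so these rates do not carry over directly. Python 3.11.15, pandas 2.3.3 and matplotlib 3.10.9 handled sequences and figures. Alternatives were a fit per line, all 45 arrays, the replicate number as a block, quantile normalization, subtracted array medians, 2 other filters, averaged probe sets, no _x_at or _s_at probe sets, an intensity trend with robust prior, a 2-fold minimum, the other PC3 group as control for PC3 miR-203a and miR-205, and each array left out.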

Additional observations from a re-analysis of the deposited data

Results flagged for a closer look

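The responses of the proteases and inhibitors to 1 miRNA differed between the lines in 18 of 30 moderated F-tests of limma, each adjusted over all genes. With miR-203a 5 of 10 genes differed (beside 53.1% of all genes): MMP1 (adjusted p = 0.00583), MMP3 (7.71e-06), MMP10 (9.58e-07), PLAU (2.13e-06) and PLAUR (5.17e-07). With miR-205 8 of 10 differed (75.6%): MMP3 (3.05e-05), MMP7 (0.0293), MMP10 (0.000361), MMP14 (0.00145), TIMP2 (0.0133), TIMP3 (6.39e-06), PLAU (0.000421) and PLAUR (4.45e-08). With miR-429 5 of 10 differed (71.9%): MMP1 (1.34e-06), MMP10 (9.97e-07), TIMP2 (0.00158), PLAU (0.02) and PLAUR (0.000445). The shares of all genes are as large or larger in 2 of the 3 cases, so the counts are not particular to these genes.

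Called differences of opposite sign stood in 2 lines for MMP10 with miR-203a (0.75 in HEY, -0.13 in SKOV3 and -1.64 in PC3) and with miR-429 (0.72, -0.45 and -1.59), MMP1 with miR-429 (-1.25, -0.13 and 1.07), MMP3 with miR-205 (1.31, 0.22 and -0.70), TIMP3 with miR-205 (-1.59, 0.67 and -0.24), PLAUR with miR-203a (0.08, -0.59 and 0.48) and PLAU with miR-205 (0.08, -0.30 and 0.34). The HEY means of MMP10 lie under 4.88, and its rises there were lost on leaving out 1 array. The TIMP3 rise in SKOV3 was lost whichever of the 6 arrays was left out. The MMP3 fall in PC3 and the PLAU fall in SKOV3 were each lost on leaving out either of 2 arrays. With all 45 arrays the PLAU rise in PC3 and the MMP1 rise in PC3 were no longer called. The PLAUR fall in SKOV3 was -0.11 and not called without _x_at and _s_at probe sets. The MMP3 mean in HEY with miR-NC, 4.14, also lies under 4.88. PLAUR with miR-205 differed in size with 1 direction (0.53, 0.38 and 1.45). The response of MMP7 to miR-205 rests on levels near background, and leaving out 1 array ended its call in 6 of 18 refits and that of PLAU to miR-429 in 3 of 18. With all 45 arrays the difference between lines was no longer called for MMP1 with miR-203a (0.338), MMP7 (0.0872), MMP10 (0.055) and PLAU (0.104) with miR-205 and PLAU with miR-429 (0.366), nor for PLAU with miR-429 on subtracted array medians (0.203) or TIMP2 with miR-429 on quantile normalization (0.266). The 5′ GAPDH control also differs between the lines in these comparisons, and its part was not tested.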

How the results depend on the processing

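Counts of called genes held within 1.5 times under most settings. A 2-fold minimum left 3 of 30 calls with miR-203a, 7 with miR-205 and 3 with miR-429, 5 genes between PC3 and SKOV3 and 33 of 189 probe set differences. The mean of probe sets raised the genes whose response to miR-203a differs between lines to 8, while all 45 arrays left 5 for miR-205. A stricter filter (75th percentile, 7.53), which kept 7 genes, left 5 for that test and 5 between PC3 and SKOV3. Without _x_at and _s_at probe sets 35 of 81 probe set differences were called. The replicate block left 9 calls with miR-203a, 16 with miR-205 and 12 with miR-429, 78 probe set differences and 6, 8 and 5 differences between lines, and changed none of the 90 calls on single genes. Leaving out 1 array gave 8 to 10 calls for miR-203a, 13 to 16 for miR-205 and 10 to 13 for miR-429, 5 to 6, 7 to 9 and 4 to 6 differences between lines, 8 to 8 for SKOV3 against HEY and PC3 against HEY, 7 to 8 for PC3 against SKOV3, and 73 to 82 probe set differences. With the mean of probe sets these turned direction: TIMP2 in HEY with miR-205 (0.0510), in PC3 with miR-203a (0.63) and with miR-429 (0.21), in SKOV3 against HEY (0.37) and in PC3 against SKOV3 (-0.86); PLAU in HEY with miR-429 (-0.998) and in SKOV3 against HEY (2.02); MMP14 in SKOV3 against HEY (0.0434); PLAUR in PC3 against SKOV3 (-0.77). Quantile normalization turned the last to -0.23. Subtracting array medians turned 3 PC3 miR-429 differences, of TIMP2 (0.11), PLAUR (0.41) and PLAT (0.39). The exchanged control in PC3 set the miR-203a and miR-205 groups against each other, so the same difference appears under opposite signs. A gene that moved the same way with both against miR-NC must then turn where its change was smaller. With miR-203a this held for MMP14 (-0.18), PLAUR (-0.97), RECK (0.62) and ENO1 (-0.0559). With miR-205 it held for MMP3 (1.47), PLAU (-0.50), ADAMTS5 (0.56), FOSL1 (-0.45), HPSE (0.95), ITGA3 (-0.10), MMP16 (0.16), PLAT (-0.43) and TIMP1 (-0.37). These turns follow from the design and cannot show whether the differences from miR-NC hold. Without _x_at and _s_at probe sets ENO1 turned in HEY with miR-205 (-0.24) and miR-429 (-1.04). The cause of the changes under the other settings was not tested. The fit per line gives no value between lines, a 2-fold minimum none for the F-tests, averaged probe sets none for single probe sets, and the exchanged control none outside PC3. Signal near background limits MMP3 and MMP7, MMP2 and MMP10 in HEY, and TIMP3 in PC3.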

Other observations

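On the arrays labelled untransfected HEY, MMP7 read 5.99, 8.50 and 7.92 and MMP10 5.23, 8.50 and 7.92, and replicate 1 was the lowest for both genes. MMP1 on the same arrays read 7.84, 12.02 and 11.89, and PLAU 9.37, 10.72 and 10.86. On the arrays labelled untransfected PC3, TIMP3 read 7.53, 7.19 and 7.31, where every transfected PC3 group averaged under 4.88, and MMP14 read 7.64, 7.76 and 7.75. These arrays were left out of every comparison above because line-specific genes go against their labels.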
